A study of Danio rerio with 3 samples.

Results

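The angiopoietin family encodes secreted proteins that act on blood vessels and on lipid metabolism, and 7 of its genes were examined among the 32520 genes of a count table of whole zebrafish embryos at 36 hpf. The genes were angpt1, angpt2a, angpt2b, angptl2b, angptl4, angptl6 and angptl7, matched by gene symbol, with 1 row for each. They were chosen by name, as genes of 1 family, and angptl6 was also selected on its counts in these libraries, which differ, so its values are a description and support nothing. RNA was sequenced from 3 libraries of the Tubingen strain, labelled homozygous (HO, setd2-/-), heterozygous (HE, setd2+/-) and wild-type (WT) for setd2, the gene of the enzyme that adds the third methyl group to lysine 36 of histone H3, with 1 library per genotype. No difference between genotypes therefore has a replicate check, and no test between genotypes was possible. The study describes the embryos as littermates, and its methods name egg water with methylene blue and the pigmentation blocker N-Phenylthiourea for embryos in general. The mutant line is not named in the labels. Of the frame-shift lines made with CRISPR/Cas9, the study takes E3fs1 as its default model, without naming it again for the RNA-seq. How many embryos were pooled in a library is not given in the sources used here.

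Angiopoietins are ligands of the receptor tyrosine kinase Tek (Tie2) on endothelial cells. In mammals, Angpt1 activates Tek and stabilizes vessels, whereas Angpt2 can block or activate it depending on the context. Angiopoietin-like proteins share the coiled-coil and fibrinogen-like architecture of the angiopoietins but do not bind Tek, and several of them act on integrins or on lipases. In mice, loss of Setd2 disturbs the remodeling of embryonic vessels. For its setd2 mutant zebrafish, the study reports vessel development without such a defect. By RT-qPCR at a later age, it also reports no change in the vasculogenic genes it examined. That comparison was of homozygous with heterozygous embryos, the wild type not being shown. The RNA-seq comparison itself was made to look into the smaller body size of adult setd2 mutant zebrafish, at an age before that difference is seen.

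Depth was 14160325 counts for the library labelled HO, 12760683 for that labelled HE and 13340950 for that labelled WT. The targeted gene setd2 had 2087 counts in the library labelled HO, 1380 in that labelled HE and 1348 in that labelled WT. The transcript of the mutated gene thus had its highest count in the HO library. After scaling for depth, its log2 ratio was 0.55 (0.45 to 0.65, counting error only) for HO against WT and 0.42 (0.33 to 0.52) for HO against HE. By RT-qPCR at a later age, the study reports a strong decrease of this transcript in E3fs1 homozygotes, but not in those of another line. The level in the HO library is opposite in direction to that report for E3fs1. The reason was not tested. The setd2 count does not by itself check the labels, and every direction given here rests on them. Throughout, HO, HE and WT stand for the library with that label. Whole-embryo RNA held markers of the cell types expected in it, with at least 143 counts for each of 8 endothelial markers in each library. Of the markers listed for yolk syncytial layer and liver, fabp1a and fabp10a had 0 to 2 counts, whereas the others were abundant. In the libraries labelled HO, HE and WT, apobb.1 had 125312, 79342 and 101435 counts. The gene apoa2 had 36697, 32147 and 27375, and tfa had 16898, 14996 and 15949. The summed level of the endothelial markers was 277, 247 and 271 CPM (counts scaled to the library total) in the libraries labelled HO, HE and WT. In whole-embryo RNA, fewer cells of a type and less RNA per cell cannot be told apart.

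Levels were compared between genes as FPKM, the count scaled to exonic length and to the library total, with exact 95% intervals that cover counting error only. The gene angptl4 was the most abundant of the 7 in every library, with 27.1 FPKM (25.5 to 28.8) in the library labelled HO, 30.8 (28.9 to 32.7) in that labelled HE and 30.1 (28.3 to 31.9) in that labelled WT. It made up 43.3%, 44.5% and 48.5% of the summed FPKM of the 7 genes in the same libraries. The next levels were those of angptl7, angptl2b and angpt1, in that order in each library. Their FPKM ran between 10.7 and 12.8 for angptl7, between 9.05 and 10.5 for angptl2b and between 7.52 and 8.51 for angpt1. The intervals of angptl2b and angpt1 overlapped in all 3 libraries, and those of angptl7 and angptl2b overlapped in the libraries labelled HE and WT but not in that labelled HO. Lowest was angpt2a, with 0.30, 0.53 and 0.51 FPKM in the libraries labelled HO, HE and WT.

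The place of angptl6 differed between libraries. It ranked above angpt2b in the libraries labelled HO and HE, with 3.17 and 4.47 FPKM against 2.05 and 2.85, and below it in the library labelled WT, with 1.66 against 2.55. The intervals of these neighbours were apart only in the library labelled HE. Over the 7 genes together, the level was 154 CPM (147 to 160) in the library labelled HO, 172 (165 to 179) in that labelled HE and 155 (148 to 162) in that labelled WT. This sum includes angptl6, which was selected for its differences. Without angptl6, it was 148 CPM (141 to 154) in HO, 163 (156 to 170) in HE and 152 (145 to 158) in WT. The intervals of HE and WT then overlapped, whereas those of HE and HO did not.

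**Figure D1:**
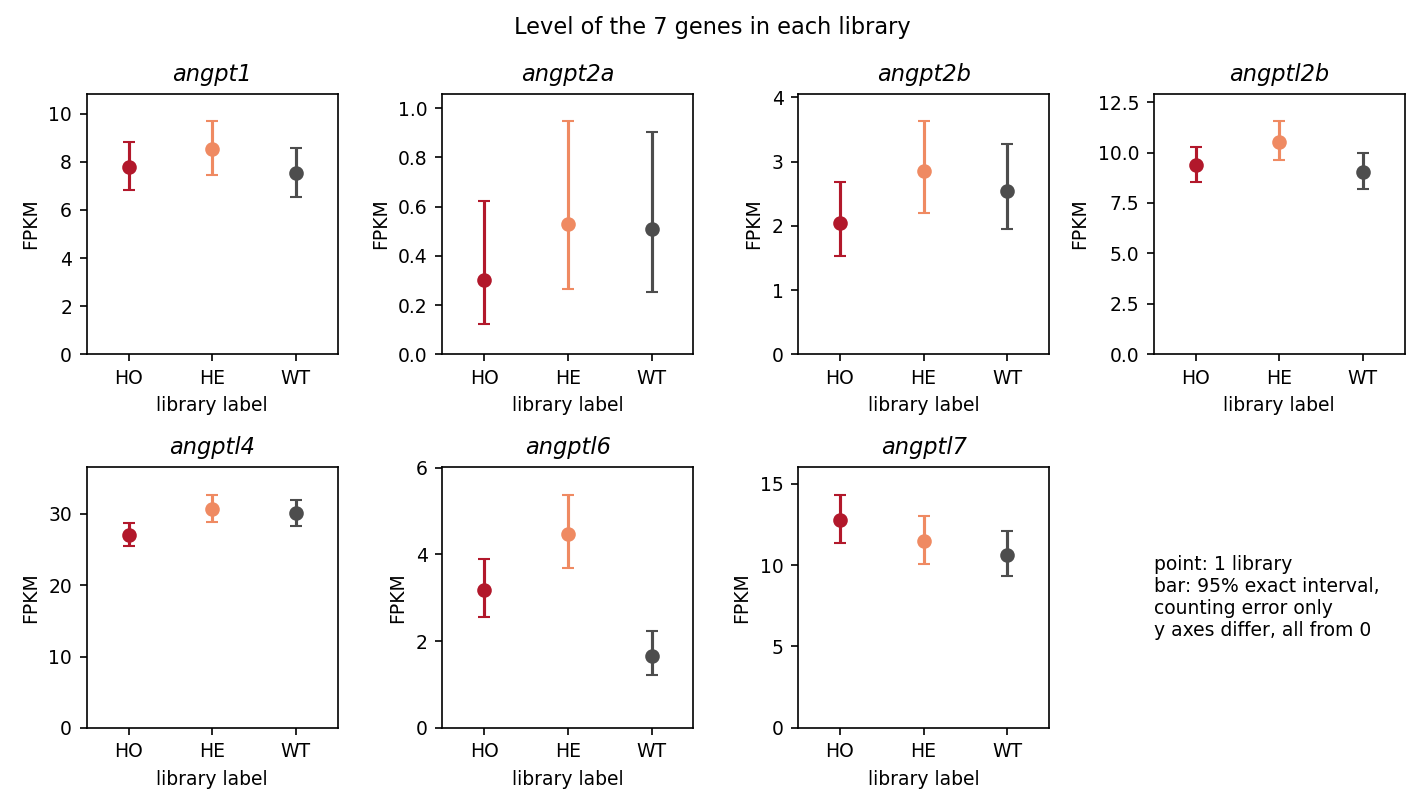
FPKM (y axis, from 0, with a different scale in each panel) of the 7 genes in the libraries labelled HO, HE and WT (x axis). Points are single libraries and bars are exact 95% intervals for counting error. The bars of angptl6 in the libraries labelled HO and HE (3.17 and 4.47 FPKM) lie above that in the library labelled WT (1.66 FPKM), and the bar of angptl4 in HO (25.5 to 28.8 FPKM) lies just below that in HE (28.9 to 32.7 FPKM).

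Libraries were compared by log2 ratios of counts after TMM scaling, with a prior count of 2. Each ratio has a 95% interval for counting error, taken from the exact binomial share of the counts in 2 libraries. The 3 pairs of libraries share members (HO and HE with WT, and HO with HE), so they are not independent of each other. Of the 7 genes, 6 averaged 10 counts or more over the libraries, as did 18966 genes in all, and angpt2a did not. Of these 6, 4 were higher in HO than in WT (49.1% of all genes), 6 were higher in HE than in WT (51%) and 1 was higher in HO than in HE (48.5%). Their median log2 ratio was 0.05 for HO against WT, 0.19 for HE against WT and -0.20 for HO against HE, beside -0.0044, 0.0065 and -0.0092 over all genes. The interval excluded 0 for 3 of them in HO against WT (angptl4, angptl6 and angptl7; background 23.5%), for 2 in HE against WT (angptl2b and angptl6; 25.5%) and for 2 in HO against HE (angptl4 and angptl6; 28.9%). These counts and medians include angptl6, which was chosen for its differences. Nothing is read from their distance to the values over all genes. The library labelled HE had the highest CPM of the 3 for every gene of the 7 but angptl7.

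No angiopoietin gene among the 7 differed between libraries beyond counting error. The gene angpt1 (ENSDARG00000030364, exonic length 2164 bases), the main activating ligand of Tek in mammals, had 238, 235 and 217 counts in the libraries labelled HO, HE and WT. Its log2 ratio was 0.05 (95% interval -0.22 to 0.32) for HO against WT, 0.20 (-0.07 to 0.48) for HE against WT and -0.15 (-0.42 to 0.11) for HO against HE. All 3 intervals include 0.

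The zebrafish genome has a pair of angpt2 genes, and angpt2b was the more abundant of the pair in each library on the FPKM scale. Counts of angpt2b (ENSDARG00000053906, 1790 bases) were 52, 65 and 61 in the libraries labelled HO, HE and WT, and those of angpt2a (ENSDARG00000014946, 1630 bases) were 7, 11 and 11. For angpt2b, the log2 ratio was -0.30 (-0.87 to 0.25) for HO against WT and -0.48 (-1.05 to 0.05) for HO against HE. For angpt2a, the interval for HO against WT ran from -2.34 to 0.76 and covers both a lower and a higher level, so that no difference was detectable at this depth. Both genes were lowest in the library labelled HO, within counting error.

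Receptors of these ligands were also examined. The gene tek had 169, 146 and 175 counts and tie1, which encodes its partner receptor, had 550, 422 and 520 counts in the libraries labelled HO, HE and WT. For HO against WT, the log2 ratio was -0.13 (-0.45 to 0.18) for tek, and the interval for tie1 was -0.18 to 0.17. In the library labelled HE, tie1 was lower than in that labelled WT by a log2 ratio of -0.21 (-0.40 to -0.02). The same pair of libraries gave -0.23 (-0.45 to -0.01) for svep1, which encodes an extracellular protein that binds Tie1, and -0.24 (-0.57 to 0.08) for ptprb, the gene of the endothelial phosphatase that restrains Tek. In the comparison of HE with WT, tie1 and svep1 were thus lower by slightly more than counting error, whereas the ratios of angpt1 and angpt2b were 0.20 and 0.18, within counting error. With the trend over exonic length removed, the ratios of tie1 and svep1 for HE against WT were -0.09 and -0.11. Of the 8 endothelial markers, tie1 and tek included, 2 were higher and 6 lower in HE than in WT (51% of all genes higher). The interval excluded 0 for 3 of the 8, namely tie1, kdrl and etv2 (25.5% of all genes). Of these, kdrl was lower, at -0.21 (-0.36 to -0.06), and etv2 was higher, at 0.43 (0.11 to 0.76). The marker pecam1 was at 0.11 (-0.12 to 0.34). For HO against HE, 6 of the 8 were higher and 2 lower (48.5% of all genes higher). The interval excluded 0 for 3 (28.9% of all genes), namely tie1 at 0.21 (0.02 to 0.40), kdrl at 0.23 (0.08 to 0.38) and fli1a at 0.27 (0.13 to 0.41). In that pair svep1 was at 0.22 (0.01 to 0.44) and tek at 0.04 (-0.29 to 0.37). For HO against WT, the interval excluded 0 only for fli1a among the 8, at 0.19 (0.05 to 0.33). The part of endothelial cells in these differences was not tested.

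The gene angptl4 (ENSDARG00000035859, 2704 bases) encodes an inhibitor of lipoprotein lipase and is a target of nuclear receptors of the PPAR family in mammals. It had 1037, 1061 and 1085 counts in the libraries labelled HO, HE and WT. After scaling, the log2 ratio was -0.15 (-0.27 to -0.02) for HO against WT, 0.06 (-0.06 to 0.18) for HE against WT and -0.21 (-0.33 to -0.08) for HO against HE. The library labelled HO was thus lowest, at 0.903-fold of the library labelled WT and 0.867-fold of that labelled HE. The counts themselves ran in the order WT, HE, HO, and the level after scaling was highest in HE, since the HE library is the shallowest.

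The gene angptl2b (ENSDARG00000068369, 3472 bases), whose mammalian counterpart acts through integrins, had 462, 467 and 419 counts in the libraries labelled HO, HE and WT. It was higher in the library labelled HE than in that labelled WT by a log2 ratio of 0.25 (0.05 to 0.44). For HO against WT the ratio was 0.06 (-0.13 to 0.25). Its paralogue angptl2a had 56, 51 and 52 counts in the libraries labelled HO, HE and WT and differed by no more than counting error in any pair.

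The gene angptl7 (ENSDARG00000027582, 1626 bases), known from the cornea and the outflow tissue of the eye in mammals, had 294, 238 and 231 counts in the libraries labelled HO, HE and WT. Its log2 ratio for HO against WT was 0.26 (0.01 to 0.52), a 1.20-fold higher level whose interval nearly reaches 0. Against the library labelled HE, the library labelled HO was at 0.13 (-0.12 to 0.38). Among the 7 genes, angptl7 was the only one with its highest level in the library labelled HO.

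The spans of some of these genes overlap another gene, and reads from bases that exons of both share can be assigned to 1 of them only by strand. Whether exons overlap was not examined. Whether the counting used strand is not given in the sources used here, since the study's methods name a stranded kit and the labels name others. In the RefSeq annotation of GRCz12tu, an assembly other than that of the authors, angptl7 overlaps mtor, angpt2a overlaps mcph1 and agpat5, and angptl2b overlaps ralgps1. There, angpt1 also overlaps LOC141379190 and LOC141378945, and angptl4 overlaps LOC137487819. These LOC genes were not found by symbol among the counted genes, so they have no values here. The gene mtor had 1195, 903 and 1008 counts in the libraries labelled HO, HE and WT, a log2 ratio of 0.16 (0.04 to 0.29) for HO against WT and -0.07 (-0.20 to 0.06) for HE against WT, beside 0.26 and 0.13 for angptl7. The counts of ralgps1 were 28, 18 and 23, far below those of angptl2b. The counts of mcph1 were 108, 102 and 82 and those of agpat5 were 608, 526 and 565, both above those of angpt2a. Whether reads of these genes entered the counts of the family genes was not tested. None of the 7 genes lies on the chromosome that carries setd2 in this annotation.

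Flanking genes in the same annotation were also looked up. Beside angptl4, rps28 had 1709, 1722 and 2009 counts in the libraries labelled HO, HE and WT, a log2 ratio of -0.31 (-0.41 to -0.22) for HO against WT next to -0.15 for angptl4, and cnn2 on the other side was at -0.01 (-0.11 to 0.08). Beside angpt1, abrab was at 0.41 (-0.07 to 0.92) and sdc2 at -0.02 (-0.14 to 0.11) for HO against WT. Beside angpt2b, trappc3 was at 0.0047 (-0.20 to 0.21) and csmd2 at -0.06 (-0.51 to 0.37) in the same pair. Of these 6 flanking genes, rps28, of the small ribosomal subunit, was thus the only one past counting error for HO against WT. For HE against WT, rps28 was at -0.13 (-0.23 to -0.04), sdc2 at -0.19 (-0.32 to -0.06) and trappc3 at 0.25 (0.05 to 0.46). The others of the 6 were within counting error in that comparison. The genes tuba4l, csmd1a, si:dkey-191c17.2, pimr188 and si:dkey-75a21.2 flank angpt2a, angptl2b or angptl7. Counts of tuba4l were 25, 33 and 25 and those of si:dkey-75a21.2 were 135, 140 and 116 in the libraries labelled HO, HE and WT. Neither differed beyond counting error for HO against WT or HE against WT. The genes csmd1a (0, 0 and 2 counts), si:dkey-191c17.2 (0, 1 and 1) and pimr188 (0, 3 and 1) were too sparse for a difference to be detected.

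The gene angptl6 (ENSDARG00000020265, 1983 bases), known in mice as a circulating factor that promotes vessel growth and energy expenditure, was the gene selected for its differences. It had 89 counts in the library labelled HO, 113 in that labelled HE and 44 in that labelled WT. As a share of the library total, this was 6.29 CPM (5.05 to 7.73) in HO, 8.86 (7.30 to 10.6) in HE and 3.30 (2.4 to 4.43) in WT. The libraries labelled HO and HE were both above the library labelled WT, beyond counting error, and HE was above HO.

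The log2 ratio of angptl6 was 0.90 (0.40 to 1.49) for HO against WT, 1.41 (0.94 to 1.99) for HE against WT and -0.51 (-0.93 to -0.10) for HO against HE. These are 1.87-fold, 2.66-fold and 0.704-fold levels. The library labelled heterozygous was highest. With 1 library per genotype, a relation of the level to the number of mutant alleles was not tested. Of the 6 genes past the count filter, angptl6 was the only one at or past a log2 ratio of 1 for HE against WT, a limit that 2.69% of all genes pass in that pair. For HO against WT and HO against HE, 0 of the 6 passed 1 (background 2.39% and 2.69%). At a limit of 0.5, angptl6 alone passed in each pair, and the background was 11.9% for HO against WT, 13.6% for HE against WT and 14.4% for HO against HE. Among the 5315 genes with a mean count between 41 and 164, which is within 2-fold of that of angptl6, 1.49% passed 1 for HE against WT and 12.5% passed 0.5 for HO against WT. Since angptl6 was chosen for these differences, nothing is read from these shares. Of the other members past the filter, angpt2b came nearest to 0.5, at -0.48 for HO against HE, and angpt2a, below the filter, was at -0.67 (-2.43 to 0.67) in the same pair.

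**Figure D2:**
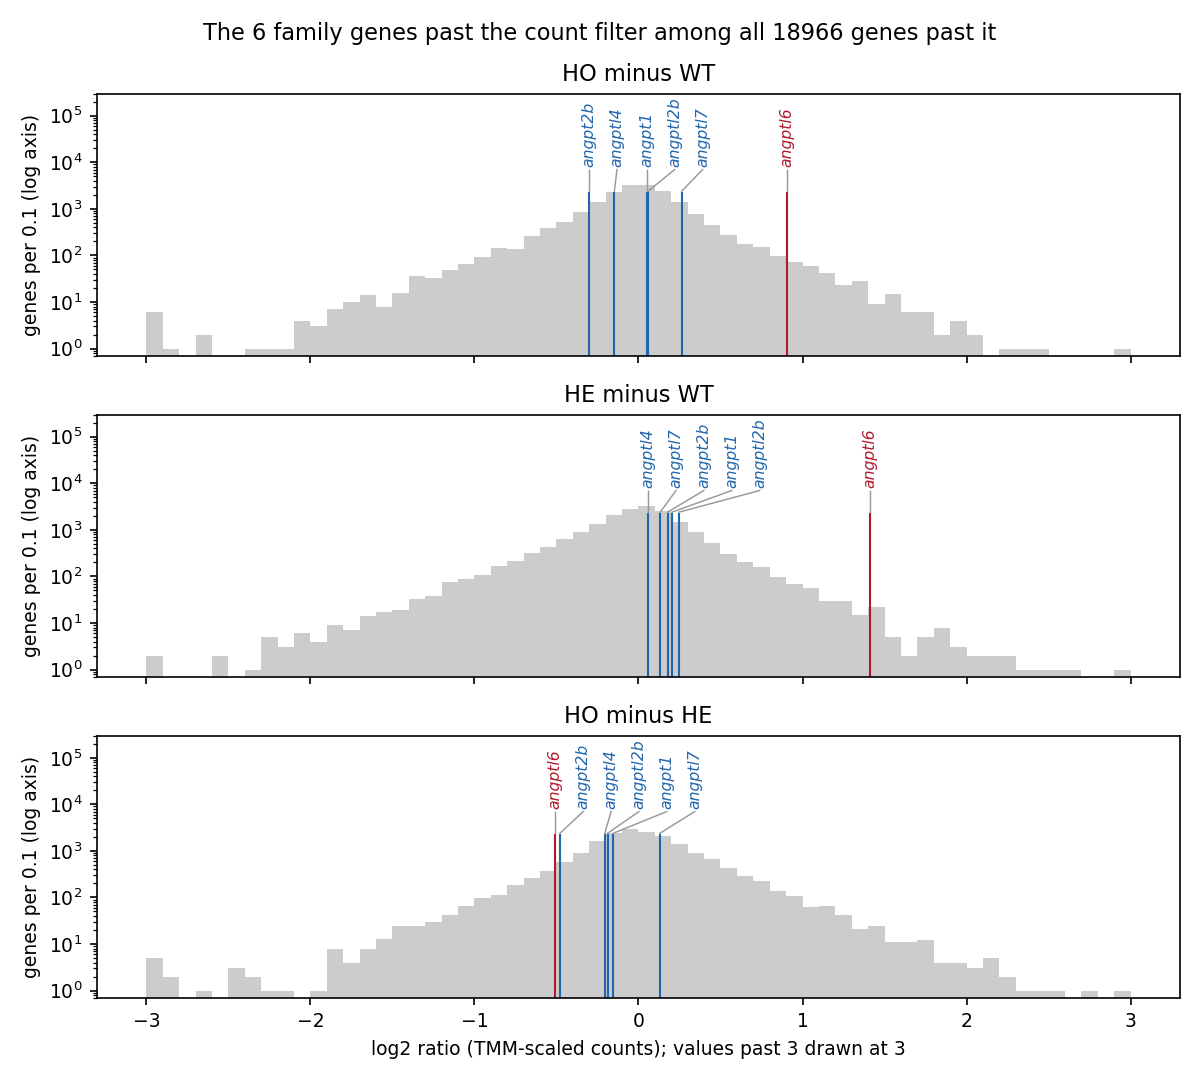
Number of genes (y axis, log scale) per 0.1 of log2 ratio (x axis) among the 18966 genes averaging 10 counts or more, for HO against WT, HE against WT and HO against HE. Vertical lines mark the 6 family genes past the filter. The line of angptl6 (red) lies at 0.90, 1.41 and -0.51. The other lines (blue) lie between -0.30 and 0.26 for HO against WT and between 0.06 and 0.25 for HE against WT. For HO against HE they lie between -0.48 and 0.13, and angpt2b (-0.48) is close to angptl6.

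Genes with a like pattern were sought among the 14564 other genes averaging 50 counts or more, by Euclidean distance over log2 values of the 3 libraries, each centred on its mean. With 3 libraries such a pattern has few degrees of freedom, and the distance is a description. The nearest gene was cyp4t8, at a distance of 0.07, with 74, 96 and 39 counts in the libraries labelled HO, HE and WT. It was followed by the lens crystallin gene cryba1b at 0.09, with 447, 613 and 239 counts. FP236197.1 (0.15), si:dkey-261j4.3 (0.16) and ushbp1 (0.19) came next, and these 5 were all the genes within 0.2.

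Markers of the lens moved in the same direction, all 4 being higher in the libraries labelled HO and HE than in that labelled WT. Of all genes, 49.1% were higher in HO than in WT and 51% in HE than in WT. Their summed level was 236, 259 and 162 CPM in the libraries labelled HO, HE and WT, and none was at 0. For HE against WT, the log2 ratios were 2.30 (2.0 to 2.67) for crybb1, 1.44 (1.23 to 1.67) for cryba1b, 0.41 (0.31 to 0.51) for crygn2 and 0.36 (0.16 to 0.57) for lim2.4. For HO against WT, they were 1.31, 0.82, 0.47 and 0.39 in that order. The pair of crystallin genes crybb1 and cryba1b was highest in the library labelled HE, as was angptl6, whereas crygn2 and lim2.4 had about the same level in HO and HE. Erythroid markers also differed, with a summed level of 1172, 1127 and 578 CPM in the libraries labelled HO, HE and WT, chiefly from the globin genes hbbe1.1 (10139, 9459 and 3218 counts) and hbae1.1 (1905, 1261 and 819 counts). The other erythroid markers differed less, hbbe2 being at 0.34 (0.21 to 0.48) for HO against WT and 0.40 (0.26 to 0.53) for HE against WT, alas2 at 0.21 (0.13 to 0.28) and -0.02 (-0.10 to 0.06) and gata1a at -0.09 (-0.51 to 0.32) and -0.03 (-0.46 to 0.40) in the same pairs. For the 4 primitive myeloid markers, the sums were 56.2, 70.8 and 52.2 CPM, of which mpx made up 42.2, 54.8 and 39.3 CPM. For HE against WT, mpx was at 0.51 (0.34 to 0.67) and lyz at 0.40 (0.05 to 0.76). In the same pair spi1b was at 0.31 (-0.37 to 1.05), and mfap4 was lower, at -0.21 (-1.28 to 0.79). Medians of the other lists for HO against WT and HE against WT were 0.23 and 0.14 (mural), -0.24 and -0.18 (heart) and 0.05 and -0.0029 (neural). They were -0.0005 and 0.19 for skin, 0.02 and -0.14 for skeletal muscle and 0.01 and -0.15 for endothelial markers. For notochord they were 0.10 and 0.06, and for yolk syncytial layer and liver 0.22 and 0.0021. Of all genes, 2.12% were at or above 0.5 in both pairs. The part of these cell types in the level of angptl6 was not tested.

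**Figure D3:**
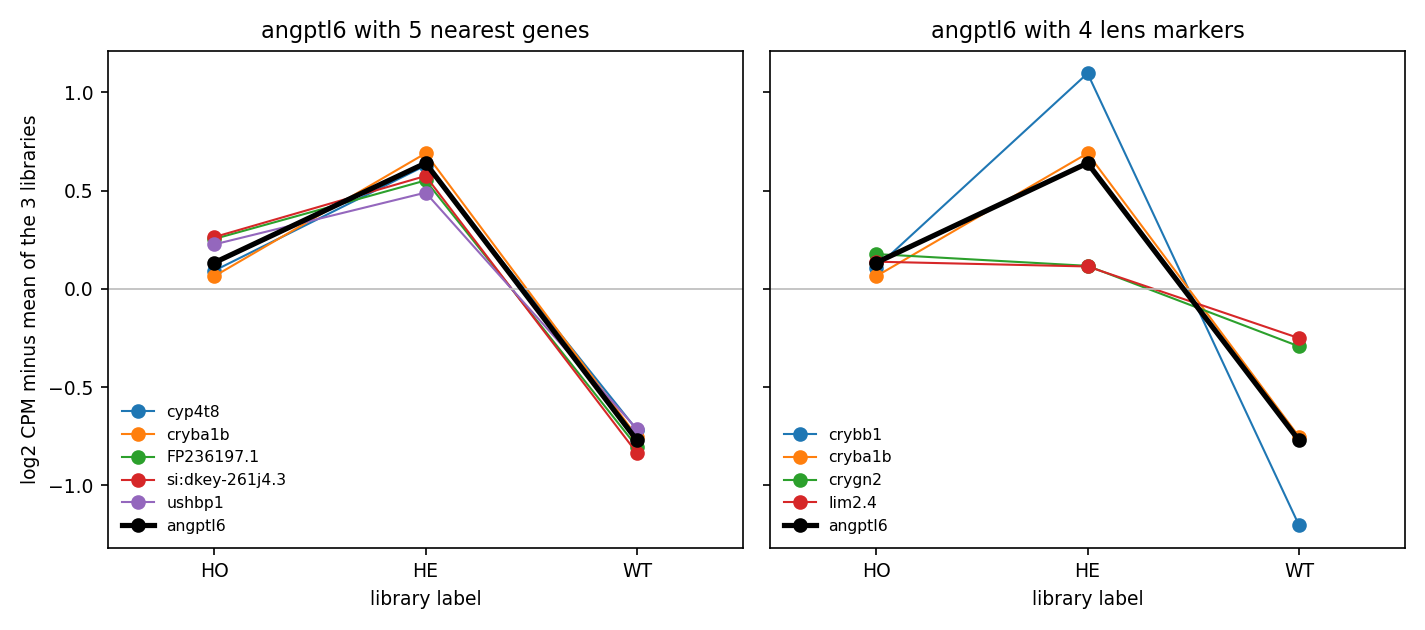
Log2 CPM minus the mean of the 3 libraries (y axis) in the libraries labelled HO, HE and WT (x axis), for angptl6 (black) with the 5 genes nearest to it (left) and with 4 lens markers (right). Each point is 1 library. All genes shown are lowest in the library labelled WT. On the right, cryba1b lies close to angptl6 (distance 0.09), and crybb1 spans a wider range (2.30 between HE and WT).

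Of the genes that flank angptl6 in the same annotation, only trip10a differed from WT beyond counting error in HO and HE. Like angptl6, trip10a was higher in HO and HE than in WT, whereas ppan was within counting error in both pairs. The gene ppan, of ribosome biogenesis, had 284, 241 and 304 counts in the libraries labelled HO, HE and WT. Its log2 ratios were -0.18 (-0.42 to 0.06) for HO against WT and -0.24 (-0.49 to 0.0046) for HE against WT. On the other side, trip10a had 194, 169 and 136 counts and was higher than in WT by 0.43 (0.11 to 0.76) in HO and by 0.40 (0.07 to 0.74) in HE. The gene si:ch73-208g10.1 overlaps angptl6 and had 11, 2 and 4 counts. Its log2 ratio was 1.05 (-0.38 to 3.48) for HO against WT and -0.54 (-4.38 to 1.89) for HE against WT, so that no direction can be read from it.

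Some other genes of the family were at low counts. Counts of angpt4 were 42, 42 and 49 in the libraries labelled HO, HE and WT, those of angptl1a were 62, 68 and 61 and those of angptl5 were 16, 27 and 20. In no pair did angpt4, angptl1a, angptl2a or angptl5 differ beyond counting error, the nearest to it being angptl5 for HO against HE, with -0.85 (-1.92 to 0.02). The gene angptl1b had 0, 0 and 2 counts, and angptl8, which the table lists as si:dkey-114l24.2, had 0, 2 and 0. Both were at or under the floor of 3 counts in every library, which is 0.212, 0.235 and 0.225 CPM in the libraries labelled HO, HE and WT.

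**Figure D4:**
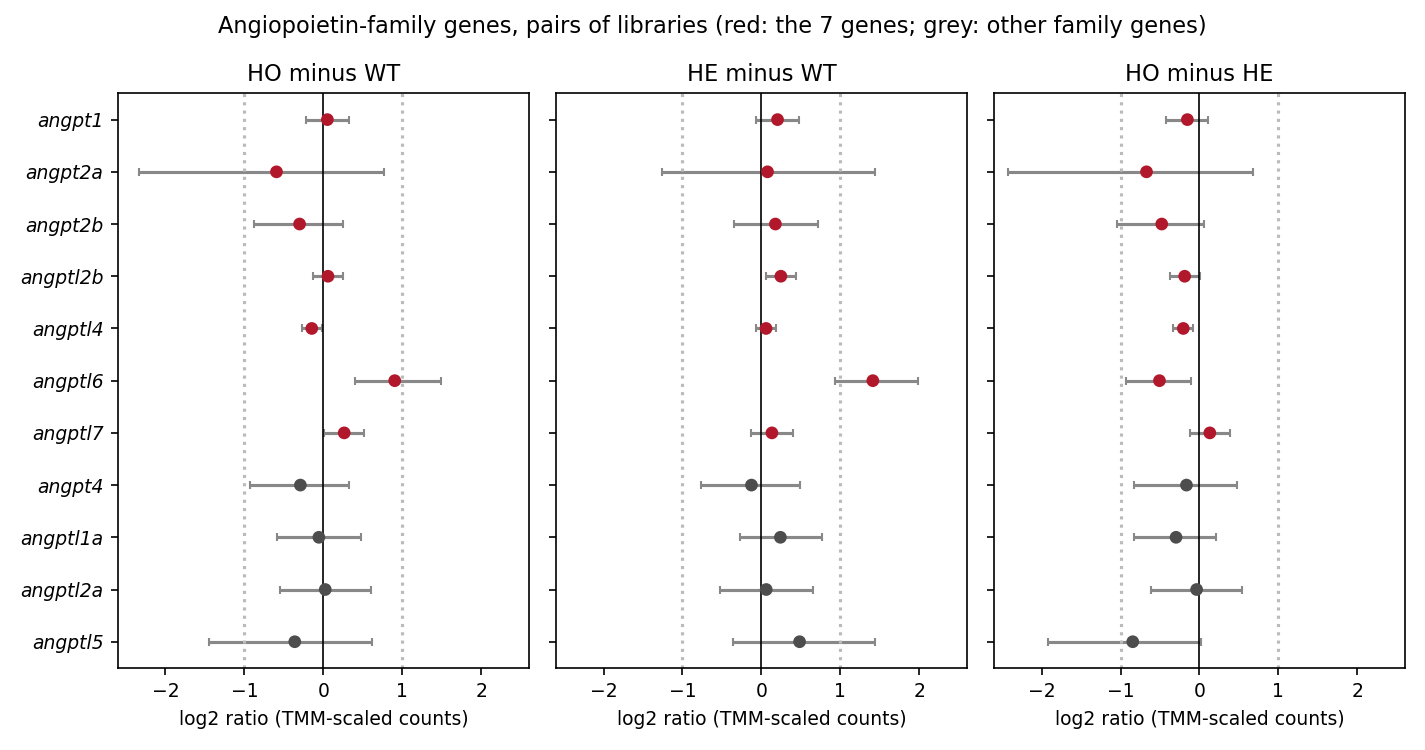
Log2 ratio of TMM-scaled counts (x axis) for genes of the family (y axis), with 95% intervals for counting error, for HO against WT (left), HE against WT (middle) and HO against HE (right). Red points are the 7 genes examined and grey points are angpt4, angptl1a, angptl2a and angptl5. The interval of angptl6 lies above 0 for HO against WT (0.40 to 1.49) and HE against WT (0.94 to 1.99), and those of angpt2a and angptl5 are the widest.

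Intracellular and matrix partners of the family were described as lists written from gene symbols. Of 17 genes of Tek signaling past the filter, 9 were higher and 8 lower in HO than in WT (49.1% of all genes were higher), with a median log2 ratio of 0.0025 against -0.0044 over all genes. For HE against WT, 5 were higher and 12 lower (51% of all genes higher), with a median of -0.04 against 0.0065 over all genes. For HO against HE, 14 were higher and 3 lower (48.5% of all genes higher), with a median of 0.08 against -0.0092 over all genes, and the interval excluded 0 for 2 of the 17 (28.9% of all genes). The most abundant were the phosphoinositide 3-kinase subunit gene pik3r1 (2279, 1940 and 2091 counts in the libraries labelled HO, HE and WT), akt2 (1903, 1694 and 1784) and the adaptor genes grb2b (1216, 1044 and 1147) and shc1 (1017, 864 and 945), whose log2 ratios lay between -0.04 and 0.06 in all pairs. The numbers of genes higher and lower were taken with the trend over exonic length left in. With it removed, grb2b changed sign for HO against HE, from 0.05 to -0.03, and akt2 kept its sign (-0.0049 and -0.0068). A single gene of the list passed a log2 ratio of 1, for HE against WT (2.69% of all genes), namely foxo1b, of the forkhead factors that Akt restrains, with 33, 20 and 55 counts in HO, HE and WT and a ratio of -1.29 (-2.19 to -0.61) for HE against WT and -0.78 (-1.49 to -0.17) for HO against WT. Its paralogue foxo1a had 232, 189 and 196 counts, with 0.16 (-0.12 to 0.44) for HO against WT. The adaptor gene dok2, below the filter, had 9, 1 and 6 counts.

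Integrins, at which several angiopoietin-like proteins act, were mostly higher in HO than in HE. Of 7 integrin genes, 6 were higher and 1 lower in HO than in HE (48.5% of all genes higher), with a median log2 ratio of 0.11, and the interval excluded 0 for 5 of them (28.9% of all genes). Of these 5, itgb5 was lower, at -0.21 (-0.41 to -0.01), and the others were higher. The widest ratio in that pair was that of itgb3b (83, 47 and 55 counts in HO, HE and WT), at 0.63 (0.11 to 1.20). Of the same 7 integrin genes, 4 were higher and 3 lower in HO than in WT (median 0.04, 49.1% of all genes higher). For HE against WT, 2 were higher and 5 lower (median -0.13, 51% of all genes higher). The interval excluded 0 for 3 of the 7 in HO against WT (23.5% of all genes) and for 3 in HE against WT (25.5%). Intervals narrow as counts rise, so nothing is read from the distance of these interval counts to the shares over all genes. The most abundant, itgav, had 2949, 2427 and 2628 counts in HO, HE and WT, followed by itgb1a with 2648, 2104 and 2636, itgb1b with 1004, 771 and 924 and itga5 with 829, 689 and 683. For HE against WT, itgb1a was lower by a log2 ratio of -0.23 (-0.32 to -0.15), and none of the 7 passed 1 in any pair.

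Among 13 lipase partners past the filter, 7 were higher and 6 lower in HO than in WT (49.1% of all genes higher). For HE against WT, 8 were higher and 5 lower (51% of all genes higher). For HO against HE, 7 were higher and 6 lower (48.5% of all genes higher). The medians in these pairs were 0.04, 0.13 and 0.01, beside -0.0044, 0.0065 and -0.0092 over all genes. The lipoprotein lipase gene lpl, whose product Angptl4 inhibits, had 948, 893 and 871 counts in HO, HE and WT and log2 ratios of 0.04 (-0.09 to 0.17) for HO against WT and 0.13 (-0.01 to 0.26) for HE against WT. The gene apoc2, which encodes the activator of this lipase, had 4971, 5485 and 6187 counts and was lower in HO than in WT by a log2 ratio of -0.40 (-0.45 to -0.34). The apolipoprotein gene apobb.1 had 125312, 79342 and 101435 counts, with 0.22 (0.21 to 0.24) for HO against WT, -0.26 (-0.28 to -0.25) for HE against WT and 0.49 (0.47 to 0.50) for HO against HE. With the trend over exonic length removed, these were 0.17, -0.14 and 0.31. The gene apoa1a had 72465, 60946 and 71101 counts. The lipase maturation gene lmf2b followed with 1114, 980 and 944 counts. Among nuclear receptors of the PPAR family, pparg had 16, 16 and 6 counts, with 1.1 (-0.09 to 2.97) for HO against WT and 1.25 (0.08 to 3.15) for HE against WT, and pparda had 46, 20 and 47 counts, with -1.07 (-1.97 to -0.36) for HE against WT. These were the members of the list past a log2 ratio of 1, 1 of 13 for HO against WT (2.39% of all genes) and 2 of 13 for HE against WT (2.69%), and both rest on few counts. With 6 counts in WT, pparg passed the filter only through HO and HE, so nothing is read from these shares. The hepatic lipase gene lipca had 0, 2 and 0 counts, at or under the floor.

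**Figure D5:**
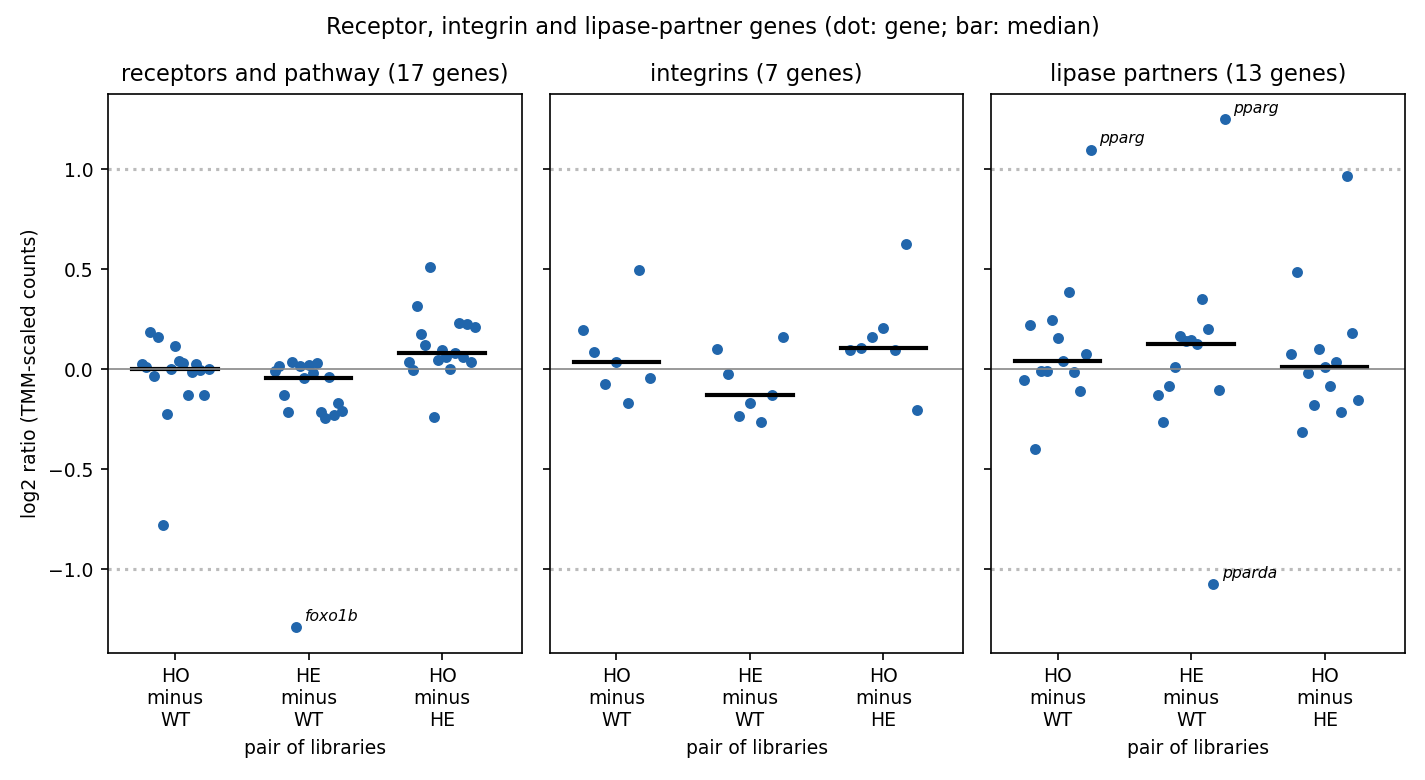
Log2 ratio of TMM-scaled counts (y axis) of genes of Tek signaling (17 genes), integrins (7 genes) and lipase partners (13 genes) for the 3 pairs of libraries (x axis). Dots are genes and bars are medians, which lie between -0.13 and 0.13. The genes foxo1b, pparg and pparda are past a log2 ratio of 1 (dotted lines) and are named.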

How the data were processed

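RNA of whole embryos was sequenced in 3 libraries. The study's methods name TopHat with GRCz10 for mapping and Cufflinks for FPKM, whereas the submitters' processing notes list HISAT2 2.0.2 and GRCz11. The values used are the deposited counts, the number of reads per gene without normalization, and the deposited FPKM values, which the authors give to 2 decimals and which equal the count over exonic length and library total (largest difference 0.0050, a rounding). The counting tool, the treatment of reads that map to several genes and the annotation release are not given in the sources used here. Values in the tables of single libraries and in the series table were equal, and 1 column whose heading names another library was not used.

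TMM factors from edgeR 4.0.16, run in R 4.3.3, were 1.004 for HO, 0.989 for HE and 1.007 for WT. Depth was 12760683 to 14160325 counts. Exact intervals (Clopper-Pearson for 1 library, binomial share for 2) cover counting error only. Reads are not independent molecules.

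The members and gene lists were chosen with earlier results of these data known. Named genes were setd2, family genes (of which 1 is not reported here), up to 4 abundant genes of each list and any past a log2 ratio of 1, the 5 genes nearest to angptl6, and genes that overlap or flank a member. The genes tek, svep1, ptprb, foxo1a, etv2, pecam1, itgb3b, itgb5 and gata1a were named after their values were seen. Symbols for angptl8 came from RefSeq synonyms, and gpihbp1 was not matched. Alternatives were DESeq2 1.42.0 size factors, library totals as scale, log2 FPKM after adding 1 or 0.1, a prior count of 0.25, no filter, a minimum mean of 100 counts and a correction for exonic length, in which each of 20 length bins was centred on its own median. The steps were run on simulated counts that hold counting error only, which cannot check the spread between embryos or library preparations. Plots and other steps used Python 3.11.15, scipy 1.17.1 and matplotlib 3.10.9. Sequences were not used here.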

Additional observations from a re-analysis of the deposited data

How the results depend on the processing

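With 1 library per genotype, all intervals measure counting error, and differences between embryos or between library preparations are not covered. The log2 ratio of angptl6 lay between 0.65 and 0.93 for HO against WT, between 1.04 and 1.45 for HE against WT and between -0.52 and -0.39 for HO against HE over the alternatives, with the values nearest to 0 from FPKM with a pseudocount of 1. A change of filter leaves the ratio of a gene as it is. Under the other 6 alternatives, all 108 ratios of the 6 genes past the filter kept their sign and stayed within their counting interval, and angpt2a has no such value. The count of family genes past a log2 ratio of 1 for HE against WT was 0 with a minimum mean of 100 counts, because angptl6, with a mean of 82, was then left out. In the comparison of HO with WT, apoa1a was at 0.023 with the trend over gene length removed, against -0.05 without that step. The same step moved the ratio of setd2 for HO against HE to 0.25, whereas it was 0.42. The causes were not tested. Among all genes, 454, 510 and 511 passed 1 for HO against WT, HE against WT and HO against HE, and these counts were 67, 66 and 75 with FPKM and a pseudocount of 1, 1698, 1913 and 1932 with no filter, and 33, 34 and 33 with a minimum mean of 100 counts. Over all results, 22 values moved past their limit without a change of sign, chiefly ratios of apobb.1 and apoa1a. No paired analysis was possible because each genotype has 1 library.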
